A study of Mus musculus with 21 samples.

Results

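At 168 h after zymosan, Ly-6B+ and Ly-6B- macrophages were sorted from peritoneal lavage cells, and their transcriptomes were compared. The comparison rests on 3 arrays of Ly-6B+ macrophages (F4/80 medium to high) and 3 arrays of Ly-6B- macrophages (F4/80 high), 6 of the 21 arrays of the series. All genes with a probe set of their own were taken, which gave 18194 genes, of which 12155 passed the filter on low signals and were tested. The gates therefore differed in F4/80 as well as in Ly-6B, and effects of these 2 sort markers cannot be told apart. Both populations came from female C57BL/6 mice aged 7 to 8 weeks that had received zymosan, a yeast cell-wall particle, into the peritoneal cavity; no genetic change was labelled in any group. The other groups were bone marrow monocytes and resident peritoneal macrophages of naive mice, and peritoneal monocytes or macrophages at 4, 18 and 72 h, each with 3 arrays. The titles number the arrays as biological replicates; whether cells of several mice were pooled for an array is not given in the sources used here, so p-values measure the spread between these arrays, whose number limits the precision.

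Zymosan engages pattern recognition receptors and recruits neutrophils and then monocytes from the blood, while many resident macrophages disappear from the lavage for a time. As the inflammation resolves, macrophages that descend from recruited monocytes share the cavity with resident macrophages that survived and divided. Ly-6B is the antigen recognised by antibody 7/4 on neutrophils, monocytes and recently recruited macrophages, and F4/80 is a surface protein that is most abundant on resident macrophages. Resident peritoneal macrophages depend on the transcription factor GATA6 and carry TIM4, a receptor for phosphatidylserine on dying cells. In bulk samples such as these, fewer cells of a type and less RNA per cell cannot be told apart.

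Signals are MAS5 values in arbitrary units, which the authors scaled to a trimmed mean of 500.0 on each array. The median signal over all probe sets was 84.1, 79.2 and 93.0 on the 3 Ly-6B+ arrays, against 88.6, 82.4 and 88.3 on the Ly-6B- arrays. Arrays of 1 population correlated at 0.974 to 0.977 among Ly-6B+ samples and at 0.971 to 0.980 among Ly-6B- samples (Pearson's r of log2 signals across genes, which are not independent), against 0.944 to 0.964 between the populations. The ratio of 3' to 5' Gapdh signal, a measure of RNA integrity and amplification, was 2.89, 2.17 and 2.59 in Ly-6B+ arrays and 2.42, 1.94 and 2.36 in Ly-6B- arrays, so the Ly-6B+ array of each pair had the higher ratio.

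The genes given as markers of the 2 populations were chosen with earlier results of these data known, so their separation is a description and not a test. Ccr2, the receptor for the monocyte chemoattractant CCL2, had 8142, 6546 and 5854 units in Ly-6B+ macrophages, against 146, 231 and 103 units in Ly-6B- macrophages. Chil3, a chitinase-like protein (Ym1) of myeloid cells, had 21988, 18592 and 13034 units in Ly-6B+ macrophages, against 899, 1599 and 225 units in Ly-6B- macrophages. The lowest Ly-6B+ array lay far above the highest Ly-6B- array for both genes. Garnl3, a gene with a Rap GTPase-activating domain, had 140.4, 279 and 129 units in Ly-6B+ macrophages, against 3639, 4135 and 4693 units in Ly-6B- macrophages. Vsig4, a complement receptor of tissue macrophages, had 1348, 2477 and 1220.1 units in Ly-6B+ macrophages, against 19740.0, 21053 and 26637 units in Ly-6B- macrophages, again without overlap. The log2 difference, Ly-6B+ over Ly-6B-, was 5.35 for Ccr2, 4.63 for Chil3, -4.47 for Garnl3 and -3.79 for Vsig4, with limma's Benjamini-Hochberg adjusted p of 3.18e-09, 1.46e-07, 7.44e-09 and 3.40e-06 in the same order. Ccr2 and Garnl3 were the extremes of all tested genes in this comparison. No probe set stood for the gene of the Ly-6B antigen alone, so the sort marker itself was not analysed here.

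Both populations carried the general macrophage genes. Adgre1, which encodes F4/80, had 24049, 23626 and 21068 units in Ly-6B+ macrophages, against 35929, 34079 and 37256 units in Ly-6B- macrophages, a log2 difference of -0.64 that passed the adjusted p (0.000648, limma) but not the fold used for a call. Csf1r, the receptor for the macrophage growth factor CSF1, differed by -0.07 on the log2 scale (95% interval -0.28 to 0.15). Mertk, a kinase receptor for bridging molecules on dying cells, had 5579, 4954 and 4806 units in Ly-6B+ macrophages, against 3310.5, 3228 and 3850.5 units in Ly-6B- macrophages (log2 difference 0.56, adjusted p = 0.045, limma, below the fold for a call). The lysosomal protein gene Cd68 stood at 6550.2, 10765 and 9400.5 units in Ly-6B+ macrophages and at 12519, 17334 and 17801 units in Ly-6B- macrophages, a log2 difference of -0.85 that passed the adjusted p (0.0131, limma) but not the fold, and that was a call (-1.01) without the first Ly-6B- array. F4/80 transcripts had the order of the sort gates without separating the populations by a factor of 2.

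A gene was called when its adjusted p was under 0.05 and its log2 difference was at least 1 in size, that is, 2-fold. By this rule 181 genes were higher in Ly-6B+ macrophages (1.49% of the 12155 tested) and 289 were lower (2.38%). More of the lower calls were large: 85 genes were lower by a log2 difference of at least 2 and 34 by at least 3, against 33 and 4 genes higher by as much. The median log2 difference over all tested genes was -0.02. The 3 and 3 arrays did not overlap for 466 of the 470 called genes, where 25.1% of all tested genes showed no overlap. Calls were found at all signal levels, with 2.96% of genes called below a mean of 100.0 units and 4.82% between 100.0 and 1000 units. Of 330 further probe sets for called genes, 307 had the direction of the chosen one and 23 the opposite direction, and 0 of these 23 were called. With the Gapdh 3' to 5' ratio as a covariate, 175 genes were higher and 273 lower. The plot of differences against signal level shows both sets of calls.

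**Figure D1:**
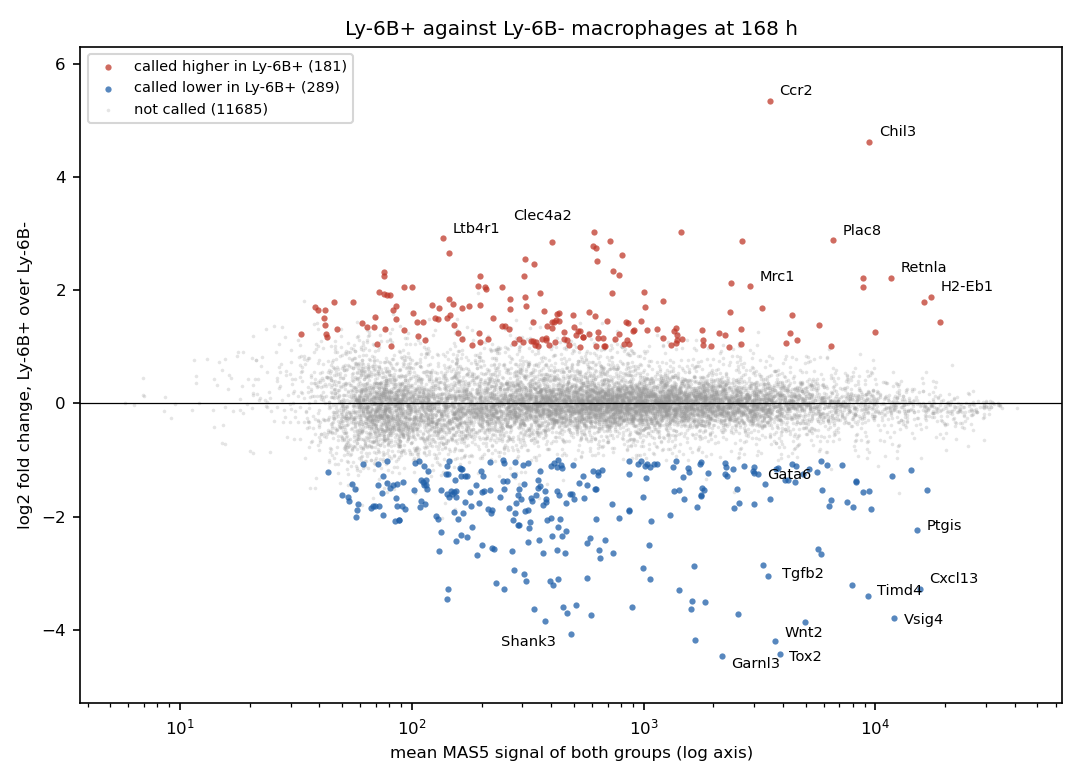
Log2 difference, Ly-6B+ over Ly-6B- macrophages at 168 h (vertical axis), against the mean signal of the 6 arrays (horizontal axis, log scale, arbitrary units), 1 point per gene. The 181 genes called higher and the 289 called lower are coloured over the 11685 genes that were not called, and 4 of the higher calls and 34 of the lower calls lie at a log2 difference of 3 or more in size.

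Of 30 tested genes of classical monocytes, 12 were higher in Ly-6B+ macrophages and 0 were lower, with a median log2 difference of 0.21. Over all tested genes, 1.49% were higher and 2.38% lower. This list holds the markers Ccr2 and Chil3 and was chosen with earlier results of these data known. F13a1, the A subunit of coagulation factor XIII, had 13078, 14055 and 16227 units in Ly-6B+ macrophages, against 4259, 3519.5 and 1928 units in Ly-6B- macrophages (log2 difference 2.22, adjusted p = 3.71e-07, limma). Plac8, a small cysteine-rich protein of myeloid cells, had 11363, 13626 and 9704 units in Ly-6B+ macrophages, against 1438, 2339.9 and 1089 units in Ly-6B- macrophages (2.88). Neither gene overlapped between the populations. The calcium-binding S100a4 and S100a6 were higher by 1.57 and 1.03, S100a6 being under the 2-fold limit without the third Ly-6B+ array (0.96) or the first Ly-6B- array (0.85). The integrin alpha-L chain gene Itgal and the sialoglycoprotein gene Spn (CD43) were higher by 1.61 and 1.37, Spn with no call and a difference of 0.77 by the mean of its probe sets. Cd177, a surface protein of neutrophils and some monocytes, had 1078, 1408 and 1440.4 units in Ly-6B+ macrophages, against 253, 256 and 258 units in Ly-6B- macrophages. The fractalkine receptor gene Cx3cr1 was higher by 1.43 (adjusted p = 0.0259, limma), a call that was lost without any of 4 of the 6 arrays (adjusted p 0.054 to 0.161) and with the mean of its probe sets (0.54).

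Members of the Ms4a family, tetraspanning membrane proteins encoded in a gene cluster, gave 3 calls among 12 tested genes, all higher, with a median log2 difference of 0.73. Ms4a4c had 687, 879 and 575 units in Ly-6B+ macrophages, against 126, 112 and 39.8 units in Ly-6B- macrophages (2.85). Ms4a6b and Ms4a6c were higher by 1.82 and 1.07. Another probe set gave 2.80 for Ms4a6b, which was called, and 0.21 for Ms4a6c, which was not. Members of this cluster are similar in sequence, so probe sets may share signal between them. The largest differences outside the monocyte list included Clec4a2, a C-type lectin receptor with an inhibitory motif (3.04), Plbd1, a phospholipase B-like lysosomal protein (3.03), Napsa, an aspartic protease (2.87), Coro1a, an actin regulator of leukocytes (2.86), and Kcnn4, a calcium-activated potassium channel (2.75). Clec4a2 had 1223, 819.8 and 1265 units in Ly-6B+ macrophages, against 125, 109.6 and 122 units in Ly-6B- macrophages. Another probe set gave a log2 difference of 0.43 for Clec4a2 and of 0.16 for Napsa, and neither was called. Further probe sets of Coro1a and Kcnn4 were called higher. Coro1a had 5138, 4819 and 4069 units in Ly-6B+ macrophages, against 723, 800.0 and 424 units in Ly-6B- macrophages. The 18 h cells had higher means than the Ly-6B+ macrophages for these genes, 5791 units for Clec4a2 and 15265 units for Coro1a.

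Of 33 tested genes typical of resident peritoneal macrophages, 14 were lower in Ly-6B+ macrophages and 0 were higher (median log2 difference -0.99). Over all tested genes, 2.38% were lower and 1.49% higher. This list holds the markers Garnl3 and Vsig4 and was chosen with earlier results of these data known. Its members differed widely. The 14 genes called lower stood at 4.4% to 44.3% of their Ly-6B- mean in Ly-6B+ macrophages, with a median of 11.4%. The 19 genes that were not called stood at 34.7% to 199%, with a median of 80.9%. This division follows from the call rule and is given as a description.

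Among the genes called lower was Timd4, which encodes TIM4, with 1375, 2141 and 1352 units in Ly-6B+ macrophages, against 16314, 17210.0 and 17216 units in Ly-6B- macrophages (log2 difference -3.40). Cxcl13, a chemokine that draws B cells into the cavity, had 2221, 6139 and 1662 units in Ly-6B+ macrophages, against 25840.0, 26636 and 30687 units in Ly-6B- macrophages (-3.28). The second Ly-6B+ array was the highest of its group for Timd4, Cxcl13, Vsig4 and Garnl3, and it still lay far below every Ly-6B- array. Gata6 itself had 1844, 2121 and 1554 units in Ly-6B+ macrophages, against 3722, 4885 and 4487 units in Ly-6B- macrophages, the smaller difference of -1.24 (adjusted p = 2.68e-04, limma). Tgfb2, a TGF-beta ligand, had 1336, 1808 and 1437 units in Ly-6B+ macrophages, against 13268, 12427 and 17228 units in Ly-6B- macrophages (-3.21). Ltbp1, which holds latent TGF-beta in the matrix, had a log2 difference of -2.65, and Cav1, the caveolar coat protein, one of -3.51. Selp, which encodes the adhesion molecule P-selectin, had 4689.8, 4335 and 4299 units in Ly-6B+ macrophages, against 12626, 12458 and 14616 units in Ly-6B- macrophages. Apoc1, an apolipoprotein, had 39.8, 111 and 31.1 units in Ly-6B+ macrophages, against 556, 953 and 1009.8 units in Ly-6B- macrophages.

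Several resident genes that were not called had small differences between the 2 populations. Prg4, a lubricating proteoglycan, had 26270.0, 29152 and 30905 units in Ly-6B+ macrophages, against 31538, 30909 and 36333 units in Ly-6B- macrophages (log2 difference -0.19, 95% interval -0.79 to 0.40). Alox15, a lipoxygenase that forms lipid mediators of resolution, differed by -0.25 (-1.60 to 1.10), and Fcna, a ficolin of the lectin complement pathway, by -0.29 (-1.02 to 0.43). These intervals use the spread of all 21 arrays. Within the 3 pairs of 168 h arrays Alox15 differed by -0.32, -0.07 and -0.37, and Fcna by -0.36, -0.22 and -0.29. Cd5l, a scavenger protein secreted by tissue macrophages, and Icam2, an adhesion molecule used to gate resident macrophages, differed by -0.34 and -0.31. The groups did not overlap for Prg4, Alox15, Fcna, Cd5l or Icam2, as for 25.1% of all tested genes. With a fit to the 6 arrays of 168 h and their pairs, Cd5l, Icam2 and Fcna had adjusted p of 0.0202, 0.0279 and 0.0356 (limma). Alox15 and Prg4 had 0.0825 and 0.119 in that fit (limma). Saa3, an acute-phase protein, had 28212, 32572 and 36309 units in Ly-6B+ macrophages, against 32444, 31134 and 32052 units in Ly-6B- macrophages. Signals such as those of Prg4 and Saa3 lay high on a scale whose highest value was 49769.5 units. Whether differences are compressed at such signals was not tested. Marco and Lrg1 were further apart although they were not called, at 34.7% and 47.5% of their Ly-6B- mean. Marco, a scavenger receptor, had 4277, 8448 and 6865 units in Ly-6B+ macrophages, against 16170.0, 20043 and 20312 units in Ly-6B- macrophages, and these arrays did not overlap. Its adjusted p was 0.172 with the spread of all 21 arrays and 1.57e-04 with a fit to the 6 arrays of 168 h and their pairs, where Lrg1 also passed (4.84e-04, limma).

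Set against the 18 h cells, 23 of the 33 resident genes were higher in Ly-6B+ macrophages of 168 h and 0 were lower (median log2 difference 2.12), where 6.89% of all tested genes were higher and 2.75% lower. These 23 included 10 of the 14 genes that were lower than in Ly-6B- macrophages and 13 of the 19 that were not called. Gata6 averaged 1839.6 ± 283 units in Ly-6B+ macrophages and 208 units in 18 h cells, and Timd4 averaged 1622 ± 449 units in Ly-6B+ macrophages and 347 units in 18 h cells (SD, n = 3 each). Garnl3, Cav1, Cxcl13 and Apoc1 did not pass the call rule against 18 h cells, at log2 differences of 0.79, 0.72, 0.91 and 0.71. Against naive resident macrophages, 14 of the 33 genes were lower in Ly-6B+ macrophages and 0 were higher, where 2.36% of all genes were lower. By limma, 0 of the 33 were called in either direction between Ly-6B- and naive resident macrophages, and 0 had an unadjusted p under 0.05. These comparisons share arrays with the one between the 168 h populations. The plot of resident genes by array shows the graded pattern.

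**Figure D2:**
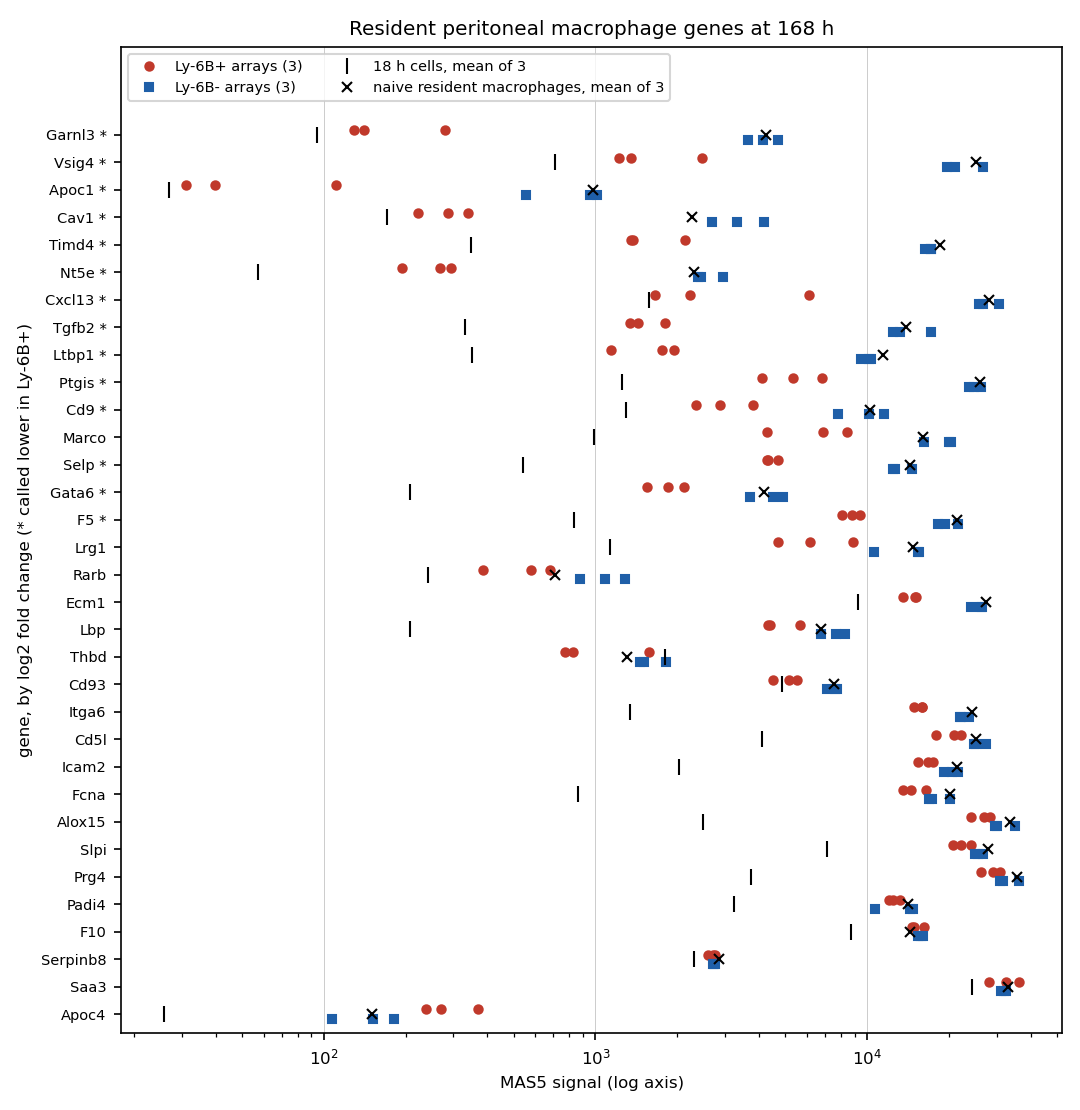
MAS5 signal (horizontal log axis, arbitrary units) of the 33 tested genes of the resident list in each Ly-6B+ and Ly-6B- array at 168 h, with the means of 18 h cells and naive resident macrophages. Asterisks mark the 14 genes called lower in Ly-6B+ macrophages; Garnl3 stood at 4.4% of its Ly-6B- mean and Saa3 at 102%.

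Among all tested genes, the largest differences to the lower side in Ly-6B+ macrophages, besides Garnl3 and Vsig4, were in genes of varied function. Tox2, an HMG-box transcription factor, had 324, 398 and 247 units in Ly-6B+ macrophages, against 10283, 5314 and 6618 units in Ly-6B- macrophages (log2 difference -4.42). Wnt2, a secreted WNT ligand, had 335, 541 and 265 units in Ly-6B+ macrophages, against 7953, 6375 and 6642 units in Ly-6B- macrophages (-4.20). Hdc, the enzyme that makes histamine, had 187, 195 and 113 units in Ly-6B+ macrophages, against 2867, 3228 and 3432 units in Ly-6B- macrophages (-4.18). Every Ly-6B- array lay far above every Ly-6B+ array for these genes, but lack of overlap was a condition of their choice. Of all tested genes, 25.1% showed no overlap. Shank3, a scaffold protein known from synapses, differed by -4.08 and Cald1, an actin and tropomyosin binding protein, by -3.86. Others among the 12 largest differences on this side were Prtg (-3.85), Cadps2 (-3.73), Tcim (-3.72), the tight junction gene Ocln (-3.71) and the lectin receptor gene Cd209b (-3.63). Hdc is also made by mast cells, and the 8 other mast cell markers tested were not called. Cpa3, a mast cell carboxypeptidase, had 604, 398 and 439.9 units in Ly-6B+ macrophages, against 291, 243 and 162 units in Ly-6B- macrophages, the opposite direction. It was not called (log2 difference 1.02, adjusted p = 0.4545, limma) but did pass in a fit to the 6 arrays of 168 h, without pairs (0.0331) and with them (0.00531).

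Of 21 tested genes of antigen presentation on MHC class II, 6 were higher in Ly-6B+ macrophages and 1 was lower, with a median log2 difference of 0.17. Over all tested genes, 1.49% were higher and 2.38% lower. The list holds H2-Eb1, which was also given as a marker of Ly-6B+ macrophages. MHC class II molecules display peptides to CD4 T cells, and CIITA is the coactivator that turns on their genes together with the NF-Y and RFX complexes at a shared promoter module. The box ATTGG, read as CCAAT on the other strand, is the core letters bound by NF-Y. The 150 bases upstream of the annotated start are shown for 3 of these genes because they carry this box, taken from RefSeq on GRCm38.p6 and given in the direction of transcription with each box in capitals. H2-Eb1 lies at chr17:34305717-34305866 on the plus strand, H2-Ob at chr17:34238755-34238904 on the plus strand, and H2-Aa at chr17:34287824-34287973 on the minus strand.
H2-Eb1: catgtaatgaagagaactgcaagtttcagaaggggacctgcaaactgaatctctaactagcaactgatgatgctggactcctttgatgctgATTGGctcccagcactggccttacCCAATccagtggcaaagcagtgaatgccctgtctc
H2-Ob: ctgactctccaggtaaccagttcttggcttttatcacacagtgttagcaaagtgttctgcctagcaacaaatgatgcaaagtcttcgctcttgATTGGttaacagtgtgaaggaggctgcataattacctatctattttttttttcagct
H2-Aa: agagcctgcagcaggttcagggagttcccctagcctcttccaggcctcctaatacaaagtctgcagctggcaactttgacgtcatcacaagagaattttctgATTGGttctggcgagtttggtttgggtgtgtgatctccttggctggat
The boxes began 59 and 35 bases before the start in H2-Eb1, 57 in H2-Ob and 48 in H2-Aa. Over both strands, ATTGG or CCAAT was found in 13 of the 25 windows searched for the list (12 of 17 genes). It was found in 24.5% of 32851 promoter windows of the same length. H2-Ab1, Cd74 and Ciita were not among the 17 genes. H2-Ab1 and Ciita had no window, while Cd74 was left out of the list's search by its chromosome. The share over all promoter windows had no such exclusion. The longer CTGATTGG or CCAATCAG, which contains the box, occurred in 4 genes of the list, H2-Eb1 and H2-Aa among them, and in 3.16% of all windows. H2-DMa had no box in its 2 windows. A match of letters is a description and not evidence of binding.

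The coactivator gene Ciita had 374, 479.9 and 384 units in Ly-6B+ macrophages, against 113, 136 and 107 units in Ly-6B- macrophages (log2 difference 1.67, adjusted p = 2.78e-05, limma). H2-Eb1, a beta chain, had 23268, 28041 and 29814 units in Ly-6B+ macrophages, against 6201, 11759 and 5217 units in Ly-6B- macrophages (1.89). H2-Ab1, the other classical beta chain, had 21249, 25377 and 28108 units in Ly-6B+ macrophages, against 6127, 11578 and 5177 units in Ly-6B- macrophages (1.79). The groups did not overlap for these genes, and the second Ly-6B- array was the highest of its group for all of them. Cd74, the invariant chain that guides class II molecules to endosomes, was higher by 1.45. H2-DMa, which loads peptides, was higher by 1.39, a call lost without the second Ly-6B+ array (adjusted p = 0.0522) or the first Ly-6B- array (0.0656, limma). H2-Ob, a chain of the modulator of that step, was higher by 1.56.

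H2-Aa, the alpha chain, had 22026, 27985 and 28932 units in Ly-6B+ macrophages, against 13468, 20142 and 15699 units in Ly-6B- macrophages. Its log2 difference of 0.69 was not called (adjusted p = 0.0588, limma), and the mean over its probe sets gave 1.58 with an adjusted p of 0.00303. Rfx5, Nfya, Nfyb and Nfyc, genes of the RFX and NF-Y complexes, were not called. Lgmn, an asparagine-specific endosomal protease, was the gene called lower: it had 2778, 3856 and 3826 units in Ly-6B+ macrophages, against 11399, 11055 and 12360.0 units in Ly-6B- macrophages (-1.75). Costimulatory and inhibitory ligands gave 0 higher and 1 lower among 18 tested genes, the lower one being Cd200r1, an inhibitory receptor (-1.15). The means of Ly-6B- macrophages, 7726 units for H2-Eb1 and 119 units for Ciita, stood beside 5409 and 105 units in naive resident macrophages. In 72 h macrophages H2-Eb1 and Ciita averaged 19413 and 201 units. Of the 21 class II genes, 0 were called higher by limma in Ly-6B+ than in 72 h macrophages and 1 was lower. The plot of class II genes by group gives the other groups.

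**Figure D3:**
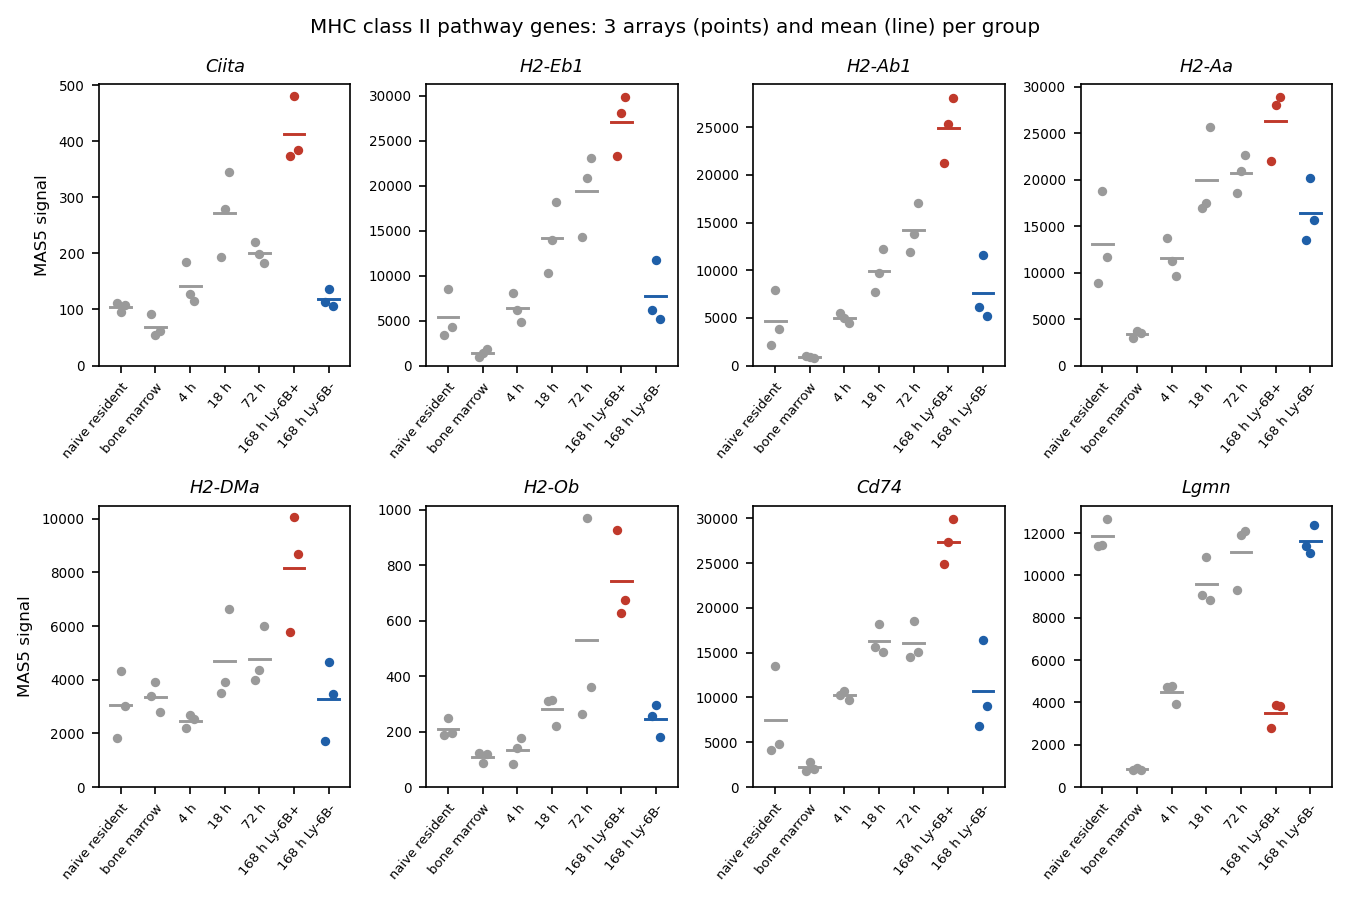
MAS5 signal (linear scale from 0, arbitrary units) of 8 genes of MHC class II presentation in the 7 groups, with 1 point per array and a line at the mean of 3. The Ly-6B+ macrophages had the highest group mean for Ciita (413 units) and H2-Eb1 (27041 units), against 201 and 19413 units in 72 h macrophages. Lgmn ran the other way between the 168 h populations.

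B cells and dendritic cells also carry class II transcripts, so their markers are given beside these values. The summed signal of 17 B cell markers was 12140 to 12327 units in Ly-6B+ macrophages and 11830 to 14769 units in Ly-6B- macrophages. Much of this sum came from Cd37 and Bank1, which averaged 4351 and 2660 units in Ly-6B+ macrophages, against 5942 and 4404 units in Ly-6B- macrophages, and 5880 and 4936 units in naive resident macrophages. Of the 15 B cell markers tested, 10 had a positive log2 difference and 5 a negative one (median 0.73). The 10 were higher in Ly-6B+ macrophages in all 3 pairs of arrays, where 23.3% of all tested genes were. Of the 5, 3 were lower in all 3 pairs. By the call rule 0 of the 15 were higher and 1 was lower, with 2 higher and 3 lower at an unadjusted p under 0.05. Among them Ms4a1, which encodes CD20, had 1753, 917 and 688 units in Ly-6B+ macrophages, against 448, 502 and 320.4 units in Ly-6B- macrophages (log2 difference 1.28, adjusted p = 0.318, limma), and Cd79b, a chain of the B cell receptor, differed by 1.15 (adjusted p = 0.137, limma). Fitted to the 6 arrays and their pairs alone, Ms4a1 and Cd79b did pass the call rule (adjusted p 0.00436 and 0.00317, limma). Blnk, a B cell adaptor also present in macrophages, was lower by a log2 difference of -1.35, a call lost without any of 5 of the 6 arrays (adjusted p 0.0764 to 0.159). The summed signal of 24 dendritic cell markers was 7099 to 7921 units in Ly-6B+ macrophages and 17177 to 22023 units in Ly-6B- macrophages. By the call rule Cd24a, Fscn1 and Cd209a were lower and 0 of 20 tested genes were higher. Much of the difference in the sum came from Cd24a, which averaged 1653 units in Ly-6B+ macrophages and 9678 in Ly-6B- macrophages. Cd24a also averaged 9690 units in naive resident macrophages and 8018 in bone marrow monocytes. The part of B cells in the class II values was not tested.

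Of 20 tested genes of small peritoneal macrophages and of the CD11b dendritic cell-like macrophages described in this cavity, 7 were higher in Ly-6B+ macrophages and 1, Cd209a, was lower (median log2 difference 0.65). Over all tested genes, 1.49% were higher and 2.38% lower. Against 72 h macrophages, 0 of the 20 were called higher by limma and 1 lower, where 0.666% and 1.85% of all genes were. Against 18 h cells, 1 was higher and 6 were lower, where 6.89% and 2.75% of all genes were. Retnla, which encodes the secreted protein RELM-alpha, had 16582, 14737 and 26686 units in Ly-6B+ macrophages, against 3665, 3779 and 4641 units in Ly-6B- macrophages (2.22). Mrc1, the mannose receptor, had 3663, 4042 and 6359 units in Ly-6B+ macrophages, against 1010.3, 1054 and 1157 units in Ly-6B- macrophages (2.07). Fcrls, a scavenger-type relative of Fc receptors, had 1046, 413 and 1780.2 units in Ly-6B+ macrophages, against 225, 78.3 and 95.1 units in Ly-6B- macrophages (2.79). The third Ly-6B+ array was the highest for these genes, and the groups did not overlap. The folate receptor gene Folr2 was higher by 1.14, a call lost without the third Ly-6B+ array (adjusted p = 0.0969) or the first Ly-6B- array (0.0551, limma). Irf4, a transcription factor of these cells, had 1303, 1709 and 1917 units in Ly-6B+ macrophages, against 1069, 1028 and 1024 units in Ly-6B- macrophages, under the 2-fold limit. Itgax (CD11c) differed by 0.11 (95% interval -0.64 to 0.86).

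Genes linked to alternative activation of macrophages went both ways, with 5 of 23 tested higher and 2 lower. Besides Chil3, Retnla and Mrc1, the haemoglobin scavenger receptor gene Cd163 was higher, with 1087, 1087 and 2169 units in Ly-6B+ macrophages, against 609.5, 450.2 and 421 units in Ly-6B- macrophages (1.46). The lower members were Cd209a, a C-type lectin (-1.62), and Igf1, a growth factor (-1.63). Arg1, the enzyme that hydrolyses arginine, had 7986, 15943 and 8987 units in Ly-6B+ macrophages, against 12033, 18107 and 13372 units in Ly-6B- macrophages, with overlapping groups and no call. Slc7a2, a transporter of arginine, was the gene called of 12 for arginine and polyamines: it had 1154, 1152 and 1137 units in Ly-6B+ macrophages, against 4284, 4839.9 and 2895 units in Ly-6B- macrophages (-1.76).

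Receptors for chemoattractants gave 3 higher calls and 1 lower among 17 tested genes. Ltb4r1, the high-affinity receptor for leukotriene B4, had 317, 175 and 260.5 units in Ly-6B+ macrophages, against 40, 11.5 and 12.5 units in Ly-6B- macrophages (log2 difference 2.92, adjusted p = 2.11e-07, limma). Ackr3, a scavenging receptor for CXCL12, had 913, 565 and 558 units in Ly-6B+ macrophages, against 3543, 1668 and 1688 units in Ly-6B- macrophages (-1.68). Its ligand Cxcl12 had 193, 216 and 216 units in Ly-6B+ macrophages, against 1916, 1564 and 2305 units in Ly-6B- macrophages (-3.10). The 2 genes were thus both lower, with no overlap between groups. Among 23 chemokines, Cxcl12 and Cxcl13 were lower and Ccl5, which attracts T cells, was higher (1.68), a call lost without the second Ly-6B+ array (adjusted p = 0.0645) or the first Ly-6B- array (0.0739, limma).

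Cytokines and their receptors gave 2 higher and 2 lower among 34 tested genes. Il1b, the inflammatory cytokine IL-1 beta, had 663, 458 and 369 units in Ly-6B+ macrophages, against 181, 152 and 176 units in Ly-6B- macrophages, and 19912 units in 4 h cells. Its log2 difference of 1.44 had an adjusted p of 0.0375, and the call was lost without any of 5 of the 6 arrays (0.0759 to 0.159, limma). Il21r, the IL-21 receptor, was higher by 1.57. Tnfsf13b, the B cell survival factor BAFF, had 367, 373 and 353 units in Ly-6B+ macrophages, against 731, 822 and 1189 units in Ly-6B- macrophages (-1.26), a call lost without the third Ly-6B- array (adjusted p = 0.0673) and with the mean of its probe sets (-0.57, adjusted p = 0.298, limma). Tnf, Il6 and Il10 were not called, at log2 differences of 0.42, 0.45 and -0.03. Growth factors and matrix proteins gave 2 higher and 4 lower among 29. Pdgfb, a platelet-derived growth factor chain, was higher by 1.84, while another of its probe sets gave 0.32 and was not called. The lower genes were Tgfb2, Ltbp1, Igf1 and the sheddase gene Adam8 (-1.62). Mmp9, a gelatinase, was higher by 1.08, a call lost without the first Ly-6B+ array (adjusted p = 0.0678) or the second Ly-6B- array (0.0604), or with the mean of its probe sets (0.0597, limma).

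Genes for the uptake of dying cells were mostly uncalled, with 1 of 27 higher and 3 lower. Axl, a kinase receptor that recognises dying cells through GAS6, had 1209.6, 1288 and 1344 units in Ly-6B+ macrophages, against 584, 515 and 460.5 units in Ly-6B- macrophages (log2 difference 1.28; 0.48 and not called with the mean of its probe sets). Mfge8, a secreted bridge to phosphatidylserine, had 756, 699 and 719.6 units in Ly-6B+ macrophages, against 2494, 1817 and 2073 units in Ly-6B- macrophages (-1.52). Timd4 and the integrin chain gene Itgb3 (-2.15) were the other lower genes. The receptor genes Axl and Timd4 thus differed in opposite directions. Of 17 complement genes, Vsig4 and the C1 inhibitor gene Serping1 were lower, Serping1 at -1.35 with a call lost without any of 5 of the 6 arrays (adjusted p 0.0661 to 0.182). Scavenger receptors gave 2 higher (Mrc1 and Cd163) and 1 lower among 14, the lower one being Colec12, a collectin-type receptor, with 213, 132 and 136 units in Ly-6B+ macrophages, against 602, 533 and 598 units in Ly-6B- macrophages.

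Enzymes and receptors of eicosanoids gave 2 higher and 2 lower among 20. Ptgis, which makes prostacyclin, had 5319, 6799 and 4099.8 units in Ly-6B+ macrophages, against 23664, 24699 and 26384 units in Ly-6B- macrophages (log2 difference -2.23). Pla2g7, the hydrolase of platelet-activating factor, was lower (-1.81). Besides Ltb4r1, Hpgd, which inactivates prostaglandins, was higher by 1.02, under the 2-fold limit without the third array of either population (0.91 without the Ly-6B+ one and 0.92 without the Ly-6B- one) and with the mean of its probe sets (0.62). Lipid handling gave 1 higher and 2 lower among 31: the fatty acid binding protein gene Fabp4 had 4119, 4980.2 and 3183 units in Ly-6B+ macrophages, against 10750.0, 16072 and 18339 units in Ly-6B- macrophages, and the desaturase gene Scd2 was higher (1.42).

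Coagulation and plasminogen genes also divided, with 2 of 16 higher and 2 lower. F7, coagulation factor VII, had 5823, 6626 and 6197 units in Ly-6B+ macrophages, against 3655, 3069.9 and 2039 units in Ly-6B- macrophages (log2 difference 1.12; 0.89 and not called without the third Ly-6B- array). F5, the cofactor factor V, had 8827, 8066 and 9428 units in Ly-6B+ macrophages, against 19441, 18299 and 21664 units in Ly-6B- macrophages (-1.17). Serpinb2, an inhibitor of plasminogen activators, was lower (-1.52). Lysosomal genes gave 0 higher and 3 lower among 29, with a median of -0.31: Ctsf, a cathepsin, had 81.7, 161 and 136 units in Ly-6B+ macrophages, against 763, 719 and 566 units in Ly-6B- macrophages, and Glb1, a beta-galactosidase, was lower by a log2 difference of -1.52. At an unadjusted p under 0.05, 16 of the 29 were lower and 1 was higher, where 10.8% of all tested genes were lower and 9.8% higher.

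Among 15 purine receptors and ectonucleotidases, 3 were lower and 0 higher. Nt5e, the ectoenzyme CD73 that forms adenosine, had 293, 267 and 195 units in Ly-6B+ macrophages, against 2441, 2386 and 2942 units in Ly-6B- macrophages (log2 difference -3.30). P2ry14, a receptor for UDP-glucose, was lower (-3.10), as was the ATP-gated channel gene P2rx1 (-2.34). Adhesion genes gave 3 higher and 5 lower among 29. The tetraspanin gene Cd9 and the integrin chain gene Itgb1 were lower (-1.70 and -1.38). Jam2, a junctional adhesion molecule, had 2571, 2579 and 2401 units in Ly-6B+ macrophages, against 1323, 986 and 811 units in Ly-6B- macrophages. Among 23 genes of glycolysis and hypoxia, Egln3, an oxygen-sensing hydroxylase, was the 1 called gene (-2.73), lower in Ly-6B+ macrophages.

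Myeloid transcription factors differed little by the call rule, with Gata6 lower and Nr4a2 higher among 38 tested. Nr4a2, an orphan nuclear receptor induced early by stimuli, was higher by 1.15, a call lost without any of 3 of the 6 arrays (adjusted p 0.0544 to 0.066, limma) and with the mean of its probe sets (0.61). Cebpb and Irf8, factors of monocytes and macrophages, differed by 0.24 and 0.39 and were not called. By limma, 0 genes were called among 27 pattern recognition genes, 30 interferon response genes, 25 respiratory chain genes, 20 genes of cholesterol synthesis and 19 genes of NADPH oxidase and antioxidant defence. At an unadjusted p under 0.05 these lists held 2 higher and 4 lower, 1 and 3, 2 and 1, 9 and 0, and 1 and 5 genes in that order, to be read against 9.8% higher and 10.8% lower over all tested genes. Tlr4, the endotoxin receptor, averaged 1999.9 units in Ly-6B+ macrophages and 1998 units in Ly-6B- macrophages. The plot of lists shows the medians and counts of all 32 lists of functions.

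**Figure D4:**
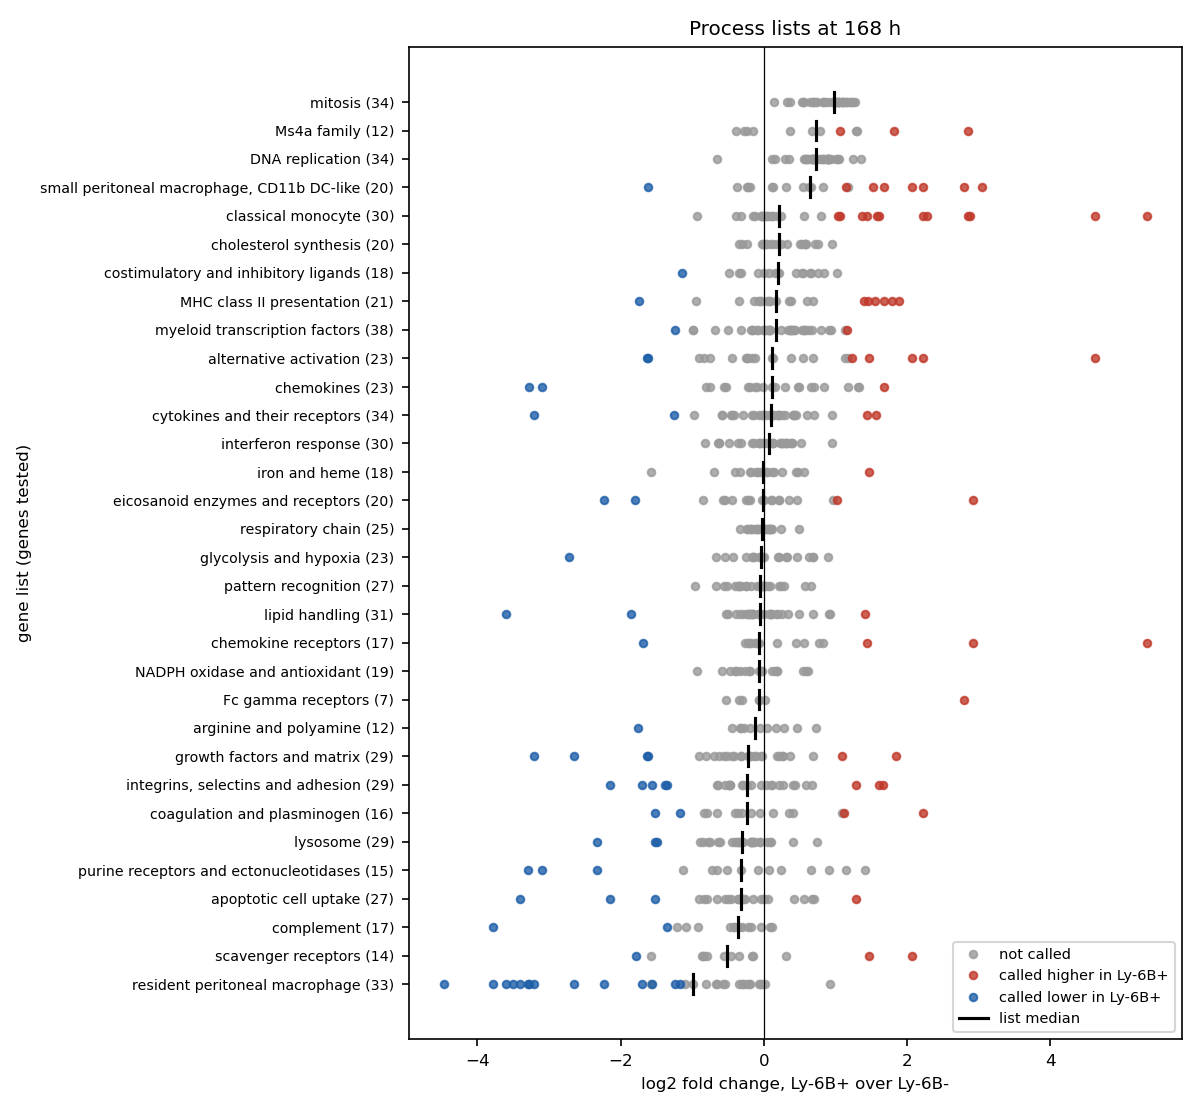
Log2 differences, Ly-6B+ over Ly-6B- macrophages at 168 h, of the tested members of 32 lists of functions, 1 point per gene, with a black line at each list's median and called genes in colour. The mitosis list had a median of 0.98 without a call, and the resident list a median of -0.99 with 14 lower calls.

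Genes of the cell cycle were higher in Ly-6B+ macrophages within pairs of arrays but were not called by the fit to all arrays. By limma, 0 of 34 mitosis genes and 0 of 34 DNA replication genes were called, although their median log2 differences were 0.98 and 0.73, and 14 and 18 of them were higher at an unadjusted p under 0.05, where 9.8% of all tested genes were. Top2a, a topoisomerase of dividing cells, had 4436, 2355 and 2066 units in Ly-6B+ arrays 1 to 3, against 2237, 1128 and 991 units in Ly-6B- arrays 1 to 3. Rrm2, which makes deoxynucleotides, had 3269, 1368 and 1222 units in Ly-6B+ arrays, against 1568, 582 and 435 units in Ly-6B- arrays. The first array was the highest in both populations, so the groups overlapped while every pair ran the same way. Mitosis genes were higher in Ly-6B+ macrophages for 34, 33 and 33 of 34 genes in pairs 1, 2 and 3, and 32 were higher in all 3 pairs, where 23.3% of all tested genes were. DNA replication genes were higher for 32, 32 and 34 of 34, and 31 in all 3 pairs. The count of DNA replication genes called higher was 5 without the third Ly-6B+ array, 4 without the first Ly-6B- array and 1 without the second Ly-6B- array.

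With the pairs as a block and the 6 arrays of 168 h alone, 15 mitosis genes and 4 DNA replication genes were called higher, where 2.02% of all genes were, and 29 and 28 had an adjusted p under 0.05 (limma). This fit was chosen after the data had been seen. Aurkb, a mitotic kinase, then had an adjusted p of 6.31e-04, and Mcm5, a subunit of the replicative helicase, 0.00103, against 0.164 and 0.114 in the fit to all arrays. Against the 18 h cells, 32 of 34 mitosis genes were higher in Ly-6B+ macrophages. Against 72 h macrophages 0 were called by limma, with 2 lower at an unadjusted p under 0.05 (median -0.61; 0.666% of all genes were higher and 1.85% lower). The bone marrow monocytes had the highest group mean for Top2a, 15076 units. The plot of pairs shows each gene.

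**Figure D5:**
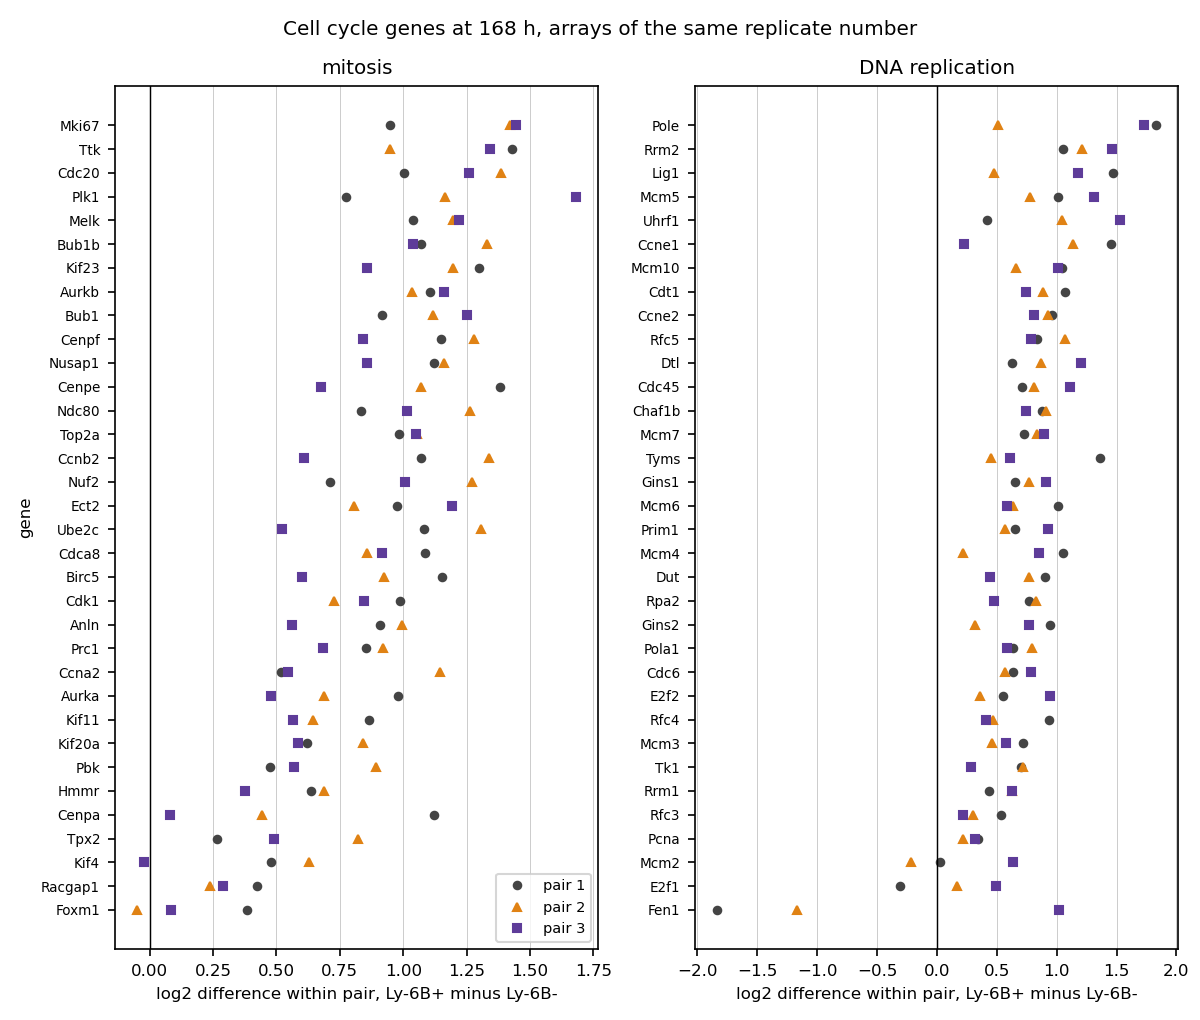
Log2 difference, Ly-6B+ over Ly-6B- macrophages, within each of the 3 pairs of equally numbered arrays (horizontal axis) for 34 mitosis and 34 DNA replication genes (1 row per gene, 1 symbol per pair). Medians were 0.98, 1.01 and 0.76 for mitosis and 0.75, 0.65 and 0.78 for DNA replication in pairs 1, 2 and 3.

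The other groups of the series place the 470 called genes. The naive resident mean lay nearer to Ly-6B+ than to Ly-6B- macrophages for 12 of the 181 higher genes (6.63%) and for 10 of the 289 lower genes (3.46%), against 32.5% of all tested genes. The 18 h mean lay nearer to Ly-6B+ macrophages for 149 higher genes (82.3%) and 262 lower genes (90.7%), against 59.3% of all tested genes. The 72 h mean lay nearer to Ly-6B+ macrophages for 116 of the higher genes (64.1%) and for 20 of the lower genes (6.92%), against 46.5% of all. For 72 h cells, the genes higher and those lower in Ly-6B+ macrophages therefore fell on different sides. Ccr2 averaged 6848 ± 1174 units in Ly-6B+ macrophages (SD, n = 3) and 5288 units at 72 h, and Timd4 averaged 1622 ± 449 units in Ly-6B+ macrophages and 13914 units at 72 h. The Ly-6B+ mean lay between those of 18 h cells and Ly-6B- macrophages for 115 higher genes (63.5%) and 206 lower genes (71.3%). With bone marrow monocytes in place of 18 h cells, the counts were 114 (63.0%) and 226 (78.2%), so this position was not particular to 18 h cells. The share of all tested genes in such a position was not computed. These are descriptions, since the genes were chosen by the difference between the 168 h populations.

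On the first principal component of all 21 arrays, which held 48.5% of the variance, Ly-6B+ arrays scored -22.6, -23.7 and -22.1, against -53.8, -50.7 and -54.7 for Ly-6B- arrays. Ly-6B+ macrophages differed from naive resident macrophages in 231 genes higher (1.9%) and 287 lower (2.36%). Ly-6B- macrophages differed from naive resident macrophages in 5 genes higher (0.0411%) and 0 lower by limma, with 248 higher and 180 lower at an unadjusted p under 0.05.

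Few genes set a 168 h population apart from every other group. F7, Jam2 and Egr3 were higher in Ly-6B+ macrophages than in each of the other 6 groups (0.0247% of genes), and Gcnt1 and Pi16 were lower (0.0165%). F7 averaged 6215 ± 402 units in Ly-6B+ macrophages, against 2921 ± 818 units in Ly-6B- macrophages, 2619 at 72 h and 2442 in naive resident macrophages (SD, n = 3 each), and its call against Ly-6B- macrophages was lost without the third Ly-6B- array (log2 difference 0.89, adjusted p = 0.0572, limma). Jam2 averaged 2517 ± 100.1 units in Ly-6B+ macrophages, against 1040.0 ± 260.2 units in Ly-6B- macrophages and 1237 at 72 h. Its smallest log2 difference from the other groups was 1.03, close to the limit of 1. Further Jam2 probe sets gave 1.09 and 1.63 against Ly-6B- macrophages, which were called, and 0.50 and 0.89, which were not. Egr3, an immediate early transcription factor, had 459, 449.8 and 242 units in Ly-6B+ macrophages, against 173, 201 and 137 units in Ly-6B- macrophages (adjusted p = 0.0466, limma), and lost its call without any of 5 of the 6 arrays (0.0633 to 0.184) and with the mean of its probe sets (0.455). Pi16, a peptidase inhibitor family member, averaged 176 ± 53.2 units in Ly-6B+ macrophages, against 1109 ± 100.2 units in Ly-6B- macrophages. Gcnt1, an enzyme that branches O-linked sugar chains, averaged 60.8 ± 17.4 units in Ly-6B+ macrophages, against 274 ± 37.1 units in Ly-6B- macrophages. For Ly-6B- macrophages, 0 genes were higher and 0 lower than in all 6 other groups by limma, with 0 and 1 past the same fold at an unadjusted p under 0.05 in every comparison.

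Markers of further cell types moved with the populations in places. Neutrophil markers summed to 15779 to 18156 units in Ly-6B+ macrophages and to 11893 to 13089 units in Ly-6B- macrophages. Much of this sum came from Prtn3 and Csf3r, which were not called. They averaged 8957 and 4644 units in Ly-6B+ macrophages, against 6663 and 4099.5 units in Ly-6B- macrophages. In naive resident macrophages they averaged 7486 and 5764 units. Of the 18 neutrophil markers tested, 3 were higher: Cd177, Mmp9 and S100a8. S100a8, an alarmin subunit, had 677, 641 and 428 units in Ly-6B+ macrophages, against 137, 293 and 249 units in Ly-6B- macrophages. Its call (adjusted p = 0.0469) was lost without any of 5 of the 6 arrays (0.0514 to 0.198, limma). S100a8 had 1 probe set, so averaging the probe sets of other genes left its log2 difference at 1.34. Its adjusted p in that fit was 0.0521 (limma). Mpo and Cxcr2, which mark neutrophil precursors and neutrophils, were not called. Platelet markers summed to 15954 to 22035 units in Ly-6B+ macrophages and to 31895 to 33829 units in Ly-6B- macrophages, with Itgb3 and Clec1b lower among 9. Most of this sum came from Pf4, which was not called (adjusted p = 0.337, limma). Pf4 averaged 18810 units in Ly-6B+ macrophages, 31431 in Ly-6B- macrophages and 34141 in naive resident macrophages. Of 8 T and NK cell genes tested, Cd2 was higher (2.08, adjusted p = 0.046), a call lost with pairs as a block (0.0526) and without any of 5 of the 6 arrays (0.0692 to 0.14, limma). By limma, 0 genes were called among 4 eosinophil, 5 mesothelial or fibroblast and 7 erythroid markers, with 0, 0 and 1 at an unadjusted p under 0.05. Genes that respond to stress and cell handling gave 2 higher calls and 0 lower among 23, Egr3 and the phosphatase gene Dusp2 (1.45). The part of these cells and of handling in the values of other genes was not tested.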

How the data were processed

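RNA of sorted cells (100 ng) was amplified in 2 cycles and hybridised to Affymetrix mouse expression arrays, per the labels' protocols. The deposited table holds signal intensity on a linear scale for 45101 probe sets and 21 arrays, made by the authors with MAS5 in Affymetrix Expression Console 1.2, per the submitters' processing notes. Each array's trimmed mean (2% trimmed at each end) was 500.0. Probe sets were named by the platform annotation supplied: 34958 had 1 gene symbol, 932 several and 9211 none listed. Where a gene had several, the one with the highest mean log2 signal over all arrays stood for it. Genes above the table's median (80.6) on at least 3 arrays were kept.

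The deposited intensity values were taken as log2(signal + 15) and fitted with limma 3.58.1 in R 4.3.3 with a mean-variance trend and a mean for each of the 7 groups, with 14 residual degrees of freedom. Differences therefore understate changes of low signals. P-values were adjusted by the Benjamini-Hochberg method over 12155 genes. A call required an adjusted p under 0.05 and a log2 difference of at least 1. On simulated data for this comparison with 12155 genes, 183, 193 and 196 of 200 genes changed by log2 1.5, 2 and 3 were recovered, with 8 false calls among 11555 unchanged genes. Replicate numbers come from the titles. Deviations of equally numbered 168 h arrays from their group means correlated at 0.304, 0.280 and 0.175, so the numbers were taken to pair the arrays.

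The members and the 43 gene lists (935 genes) were chosen with earlier results of these data known. Counts of called list members are therefore descriptions, to be read against 1.49% higher and 2.38% lower over all tested genes. Named genes were the 12 most changed each way without overlap, the 2 most changed called members each way of each list, the brightest members of quality lists, genes that set a population apart and a list of reference genes. A few others, such as Marco, Prg4, S100a8 and Top2a, were chosen after their values were seen. Alternatives covered the pseudocount, the filter, the probe set choice, the test's settings, a replicate block, RNA quality as a covariate and each array left out. Promoter windows are from RefSeq on GRCm38.p6.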

Additional observations from a re-analysis of the deposited data

How the results depend on the processing

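Leaving out 1 of the 6 arrays gave 147 to 180 genes higher and 254 to 277 lower, and 1 to 4 higher and 2 to 5 lower in Ly-6B+ macrophages than in all other groups (1 higher without the third Ly-6B- array, 5 lower without the third Ly-6B+ array), against 0 and 0 to 2 for Ly-6B- macrophages (2 without the first Ly-6B- array). With the replicate numbers as a block, 185 genes were higher and 300 lower, 468 of the 470 calls were shared, and Cd2 lost its call. With this block and only the 6 arrays of 168 h, a fit chosen after seeing the data, the counts were 246 and 330, and 455 of the 470 calls were shared. Without the block, that fit took the call from Ccl5, Cx3cr1 and Folr2 (adjusted p 0.0538, 0.123 and 0.0604). Stricter settings gave fewer calls by construction: 185 lower with a filter at the 75th percentile, and 28 higher and 68 lower when limma tested against a 2-fold difference. With no minimum fold, 427 were higher and 557 lower. Genes that set Ly-6B+ macrophages apart numbered 1 higher with a pseudocount of 60, 1 higher and 1 lower with the mean of probe sets, 0 and 0 against a 2-fold difference, 13 and 9 with no minimum fold, and 4 lower with a pseudocount of 1; the cause was not tested for the pseudocount and the probe sets. Of 134 named genes under 23 settings, 0 of 3067 values reversed, 165 were weaker and 26 stronger, and 42 of the 91 called genes kept their call under every setting. Where leaving out 1 array moved a list's count of calls by over 1.5 times, it did so by 1 gene, except for DNA replication (0 to 5 higher). Precision is limited by 3 arrays a group and, for dim genes, by signal near the background.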

Other observations

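The 5 genes that were higher in Ly-6B- macrophages at 168 h than in naive resident macrophages were chosen after their values were seen. Vegfa, an angiogenic growth factor, had 188, 124 and 179 units in Ly-6B- macrophages, against 17.1, 13.9 and 49.1 units in naive resident macrophages (log2 difference 2.17, adjusted p = 0.00477, limma), and it had 298, 187 and 346 units in Ly-6B+ macrophages. Mmp14, a membrane metalloprotease, had 219, 301 and 267 units in Ly-6B- macrophages, against 82.5, 87.0 and 88.7 units in naive resident macrophages (1.45). The groups did not overlap for either gene. Noct, a circadian phosphatase of nicotinamide cofactors, had 662, 668 and 473 units in Ly-6B- macrophages, against 253, 208 and 247 units in naive resident macrophages (1.28). The other two, Basp1 and Flrt3, differed by 1.60 and 2.43 on the log2 scale.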
